A study of Mus musculus with 23 samples.

Results

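The comparison sets 2 libraries of wild type E14 mouse embryonic stem cells (ESC) against 4 libraries of limb bud from E11.5 CD1 embryos, 2 from the anterior part of the bud and 2 from the posterior part. Sample titles chose them, so no measured value entered the choice. A single library of the E11.5 CD1 embryo body served as a side check, which gives 7 of the 23 samples of the series. No group carries a deletion or a transgene. E14 is 1 cultured line, and the strain label of the embryos (CD1) differs from that of the ESC, so tissue and genetic background cannot be told apart. How many embryos were pooled for a limb bud library is not stated in the labels. The titles call the libraries biological replicates, but the run labels of both anterior libraries carry the same number, as do those of both posterior libraries, and p-values measure only the spread between these libraries. Contact maps hold no expression, so the labelled cell types could not be checked against marker genes.

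The assay was 5C, in which formaldehyde-fixed chromatin is cut, ligated and read out with primers for the fragment ends of one region. It covered 28.317 to 29.997 Mb of chromosome 5 (mm9) in 80 bins of 21 kb, numbered here from 0. A contact value is the authors' deposited value for a pair of bins, without a stated unit, scaled here to one total per library. High values mean frequent contact. About 34.0 percent of the pairs carry the same value as the pair of the neighbouring bin, so pairs are not independent. Totals before scaling ran from 54320 to 62606.3. The limb bud libraries hold 749738 to 1400833 counts over pairs of 343 HindIII fragments, and no such counts of the ESC and body libraries were used here. Because each library averages over many cells, fewer cells with a contact and a weaker contact in every cell cannot be told apart.

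The genes of the region lie in 3 contact domains. A contact domain, or TAD, is a stretch of chromosome whose parts touch each other more often than they touch the neighbouring stretches, and a boundary between domains is often marked by the protein CTCF. The first domain holds Insig1 (a sterol sensor of the endoplasmic reticulum), En2 (a homeobox factor of the midbrain and hindbrain), Cnpy1 (a member of the canopy family) and Rbm33 (an RNA-binding protein). The second holds Shh, the secreted signal that patterns limb and neural tube, a long gene desert, Rnf32 (a RING finger protein) and Lmbr1, a membrane protein gene whose intron contains the enhancer that drives Shh in the posterior limb bud. The third holds Nom1 (a nucleolar protein), Mnx1 (a homeobox factor of motor neurons and pancreas) and Ube3c (a ubiquitin ligase). En2, Shh and Mnx1 are developmental regulators whose promoters are known targets of Polycomb repression in ESC, and Polycomb targets are known to touch each other there. In limb bud, Shh is active only in a posterior zone.

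En2 was placed in bin 8 (28.485 to 28.506 Mb), Shh in bin 22 (28.779 to 28.800 Mb), the limb enhancer of Lmbr1 in bin 63 (29.640 to 29.661 Mb) and Mnx1 in bin 70 (29.787 to 29.808 Mb). These positions come from general knowledge of the mm9 annotation. Their order matched that of the 10 genes in RefSeq's table of another build, and distances to Shh differed by -0.602 bins (Lmbr1) to 0.365 bins (Cnpy1). A gene can therefore reach into the next bin.

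Both boundaries stood at the same bins in ESC and limb bud. They were read from the insulation value of each bin, the log2 mean contact across that bin, from the 5 bins on its left to the 5 on its right, relative to the library's mean. A low value marks a boundary. The left boundary, bin 21 (28.758 to 28.779 Mb), lies between Rbm33 and Shh. It had an insulation value of -0.947 and -1.36 in the ESC libraries, -0.973 and -1.27 in anterior limb bud, and -0.885 and -0.877 in posterior limb bud. The right boundary, bin 65 (29.682 to 29.703 Mb), lies at the start of Lmbr1, and its values were -0.720 and -0.828 in ESC, -0.744 and -0.948 in anterior and -0.597 and -0.536 in posterior limb bud. The groups overlapped at both, with limb minus ESC differences of 0.15 ± 0.12 (SE, limma adjusted p = 0.412) and 0.07 ± 0.10 (adjusted p = 0.694). Leaving out ESC library 2 turned the difference at the left boundary to -0.06. In the embryo body the left boundary was at -0.925, inside the limb range, while the right boundary was shallower than in the other 6 libraries, at -0.252.

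**Figure D1:**
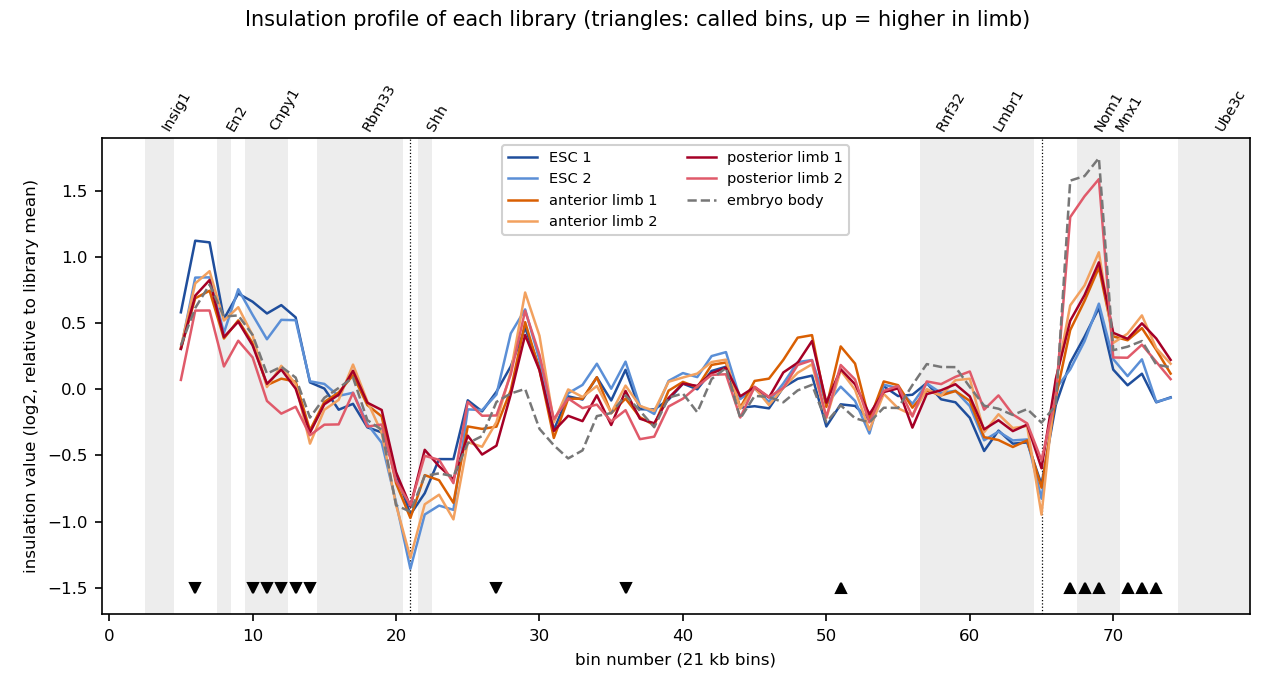
Insulation value (log2, relative to the library's mean) by bin number for the 2 ESC, 4 limb bud and 1 embryo body libraries. Grey bands are genes, dotted lines the boundaries at bins 21 and 65, and triangles the 15 called bins. Limb bud lines run below ESC from Cnpy1 to the start of Rbm33 and above ESC from bin 67 to bin 74, while at bin 66 the groups overlap.

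The largest difference among gene contacts was the contact of En2 with Shh across the left boundary, over a distance of 294 kb. Its contact value was 196 and 96.5 in the ESC libraries, 26.1 and 30.1 in anterior limb bud, 17.3 and 23.3 in posterior limb bud and 21.6 in the embryo body. Both ESC libraries lay above all 5 embryo libraries. Genes and the stretches between them were paired as segments, and 9 of the 218 segment pairs (4.13 percent) passed an adjusted p of 0.05, 8 lower in limb bud (3.67 percent) and 1 higher (0.459 percent). En2 with Shh had the smallest p of them, with a limb minus ESC log2 difference of -2.54 ± 0.31 (SE) and an adjusted p of 0.00975, so the contact value in ESC was 5.80 times that in limb bud. Over all 218 pairs the median difference was 0.02 and 42 pairs had an unadjusted p under 0.05.

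Mnx1, the third developmental regulator, had lower contact values with both others in limb bud. En2 with Mnx1, 1302 kb apart and in the outer domains, had contact values of 122 and 55.1 in ESC, 34.3 and 30.8 in anterior and 26.6 and 29.1 in posterior limb bud. Shh with Mnx1, 1008 kb apart, had values of 33.3 and 14.9 in ESC against 6.71, 9.08, 5.80 and 7.62 in the limb bud libraries. Neither pair overlapped between the groups. The log2 differences were -1.45 ± 0.29 for En2 with Mnx1 and -1.63 ± 0.32 for Shh with Mnx1 (adjusted p = 0.0419 for each). Each of these genes is 1 bin, and the same contacts tested among the 2853 single bin pairs were not called (adjusted p = 0.112 and 0.119). The embryo body had 52.0 for En2 with Mnx1, close to ESC library 2, and 9.499 for Shh with Mnx1, close to the limb bud.

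In the ESC mean these contacts were the strongest of their length, though Shh with Mnx1 was level with its surroundings in ESC library 2. En2 with Shh ranked 1 of 60 bin pairs at its separation in the ESC mean and 7 of 60 in the limb mean. Shh with Mnx1 ranked 1 of 29 in ESC and 22 of 29 in limb bud. En2 with Mnx1 ranked 1 of 17 in both tissues, so it remained the strongest contact of its length in limb bud although its value was lower. Against the mean of the surrounding bin pairs, En2 with Shh was 7.13 and 4.85 times as high in ESC and 1.37 to 2.49 times as high in limb bud. The same ratio for En2 with Mnx1 was 5.94 and 4.62 in ESC and 1.94 to 2.56 in limb bud, and that for Shh with Mnx1 was 1.79 and 1.03 against 0.494 to 0.758. With 2 against 4 libraries the exact permutation test cannot go below 0.0667, two-sided, and each of these ratios reached that value.

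The spread between the ESC libraries was wide for these genes, with library 1 above library 2 at every contact among En2, Shh and Mnx1. En2 with Shh kept its call whichever library was left out, with log2 differences of -3.05 to -2.02, where a fit with 1 ESC library assumes that it varies like the limb bud libraries. Without ESC library 1, En2 with Mnx1 was at -0.87 and Shh with Mnx1 at -1.05 (adjusted p = 0.230 for each). Both were also lost without anterior library 1, anterior library 2 or posterior library 1 (adjusted p = 0.0619 to 0.0997). ESC library 1 and the second anterior and posterior libraries were run in the same month, and among these 3 libraries the differences were -2.89, -2.03 and -2.0003 for En2 with Shh, En2 with Mnx1 and Shh with Mnx1. This month holds 1 ESC library, the one with the higher values here, so its differences carry no ESC spread and are given as values without a test. With the bins of En2, Shh and Mnx1 widened by 1 on each side, a setting chosen after seeing the data, En2 with Shh was at -1.35 (adjusted p = 0.00964), while En2 with Mnx1 at -0.54 (adjusted p = 0.211) and Shh with Mnx1 at -0.63 (adjusted p = 0.120) were not called. Quantile normalization also ended the calls of En2 with Mnx1 and Shh with Mnx1 (adjusted p = 0.0651 and 0.0521). Against posterior limb bud alone En2 with Shh was at -2.78 but missed the threshold (adjusted p = 0.111).

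**Figure D2:**
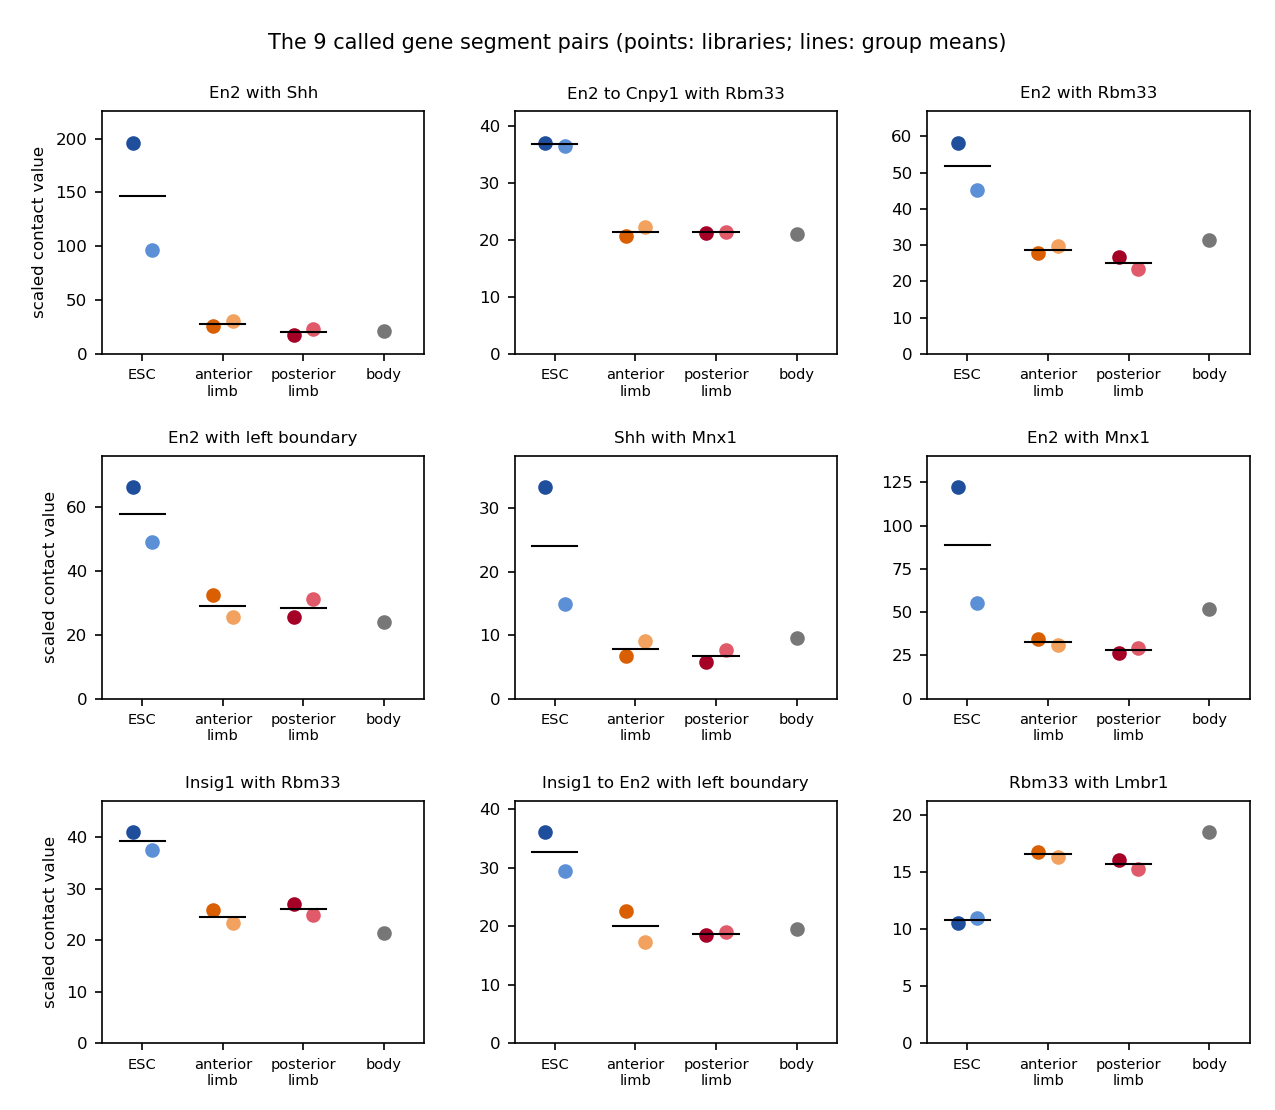
Scaled contact value of the 9 called gene segment pairs in each library (points), with the mean of each group as a line. ESC points lie above all limb bud points in 8 panels, most widely for En2 with Shh (96.5 and 196 against 17.3 to 30.1), and below them for Rbm33 with Lmbr1.

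Within the En2 domain, contacts of Insig1, En2 and the bin after En2 with Rbm33 were lower in limb bud. En2 with Rbm33, 7 to 12 bins away, had contact values of 58.3 and 45.3 in ESC, 27.9 and 29.7 in anterior and 26.8 and 23.5 in posterior limb bud, a log2 difference of -0.94 ± 0.17 (adjusted p = 0.0340). The bin between En2 and Cnpy1 with Rbm33 was at 37.0 and 36.5 in ESC against 20.7 to 22.2 in limb bud (-0.78 ± 0.13, adjusted p = 0.0288). Insig1 with Rbm33 was at 40.9 and 37.4 against 23.3 to 26.9 (-0.63 ± 0.14, adjusted p = 0.0456). The groups did not overlap at any of these 3 pairs.

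Contacts of En2, and of the stretch before it, with the left boundary were lower as well. This was not general, since the 38 segment pairs with either boundary bin had 19 higher and 19 lower limb means. En2 with bin 21 was at 66.04 and 49.1 in ESC against 25.4 to 32.3 in limb bud (-1.004 ± 0.183, adjusted p = 0.0340). Tested among the 2853 single bin pairs, the same contact was not called (adjusted p = 0.114). The stretch between Insig1 and En2 with bin 21 was at 36.1 and 29.4 against 17.4 to 22.6 (-0.76 ± 0.16, adjusted p = 0.0456). In all, 3 of the 31 segment pairs inside the En2 domain were called, all lower, with a median difference of -0.24 over the 31. Calls inside this domain and at its boundary depended on which library was left out. Without ESC library 1, without anterior library 1 or without posterior library 1, En2 with Shh was the 1 segment pair of the 9 still called, while without anterior library 2 there were 2, without ESC library 2 there were 5 and without posterior library 2 there were 6. Since the groups did not overlap at any of the 9 pairs, leaving out libraries could not reverse a difference. Within the shared run month the 5 losses inside the En2 domain or at its boundary were at -1.23 to -0.76. With each library divided by its mean at each distance (observed over expected), Insig1 with Rbm33 and the stretch between Insig1 and En2 with bin 21 were not called (adjusted p = 0.0703 and 0.0814), and quantile normalization ended the calls of these and of En2 with bin 21 (adjusted p = 0.0521 for each).

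Single bin pairs of Cnpy1, and of the bin before it, with Rbm33 had lower values in limb bud and did not pass the test. Bins 10 and 15 had 53.4 and 66.8 in ESC against 26.1 to 29.3 in limb bud (log2 difference -0.998 ± 0.160, adjusted p = 0.0566). Bins 10 and 16 had 49.0 and 61.0 against 16.9 to 28.1 (-1.02 ± 0.20, adjusted p = 0.112). Bins 9 and 16, of which bin 9 lies between En2 and Cnpy1, had 63.2 and 70.8 against 26.5 to 40.2 (-0.98 ± 0.19, adjusted p = 0.112). From En2 itself, 17 of its 18 pairs inside the En2 domain had a lower limb mean, and at 11 of the 18 (61.1 percent) both ESC libraries lay above all limb bud libraries, against 8.59 percent of all 2853 bin pairs. Segment pairs of the whole En2 domain leaned the same way, with ESC above limb bud at 11 of 31, against 32 of all 218. En2 with bins 16, 19 and 15, all in Rbm33, had adjusted p of 0.124 to 0.130. Only 2 bin pairs of the 2853 (0.0701 percent) were called, both lower in limb bud, and 320 had an unadjusted p under 0.05.

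The insulation profile showed where the En2 domain differed. It was called at 15 of 70 bins (21.4 percent), 8 lower in limb bud (11.4 percent) and 7 higher (10 percent), and 6 of the 8 lower bins were among the 16 tested bins of the En2 domain. The steepest was bin 13, between Cnpy1 and Rbm33, at 0.544 and 0.522 in ESC, 0.058 and 0.039 in anterior limb bud and 0.005 and -0.132 in posterior limb bud. All limb bud libraries were below both ESC libraries there, with a difference of -0.54 ± 0.08 (adjusted p = 6.0e-04). Bins 11 and 12, in Cnpy1, differed by -0.48 and -0.53, bin 14 by -0.41 and bin 10 by -0.28, and bin 6, before En2, by -0.29. At En2 itself, bin 8, the difference was -0.11 ± 0.09 (adjusted p = 0.412) and the groups overlapped.

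At bin 14 limb bud had a local minimum that ESC lacked. Its insulation value was -0.310, -0.411, -0.328 and -0.347 in the 4 limb bud libraries, -0.214 in the embryo body, and 0.052 and 0.060 in ESC. The dip had a prominence of 0.450 in the limb mean, against 1.77 for the left boundary, and no minimum with a prominence of at least 0.2 lay there in either ESC library. The called bins from 10 to 14 share contact pairs, so they are not independent. Bins 11 to 14 kept their calls whichever library was left out. Bins 6 and 10 lost their calls without ESC library 1 (-0.15 and -0.23, adjusted p = 0.536 and 0.216), and also without anterior library 1 or posterior library 1 (adjusted p = 0.0548 to 0.105). Within the shared run month the differences were -0.64 to -0.59 at bins 11 to 13 and -0.43 at bin 14.

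Rbm33 also had a smaller share of its contact inside its own domain. The share counts the contact of a bin with bins of the same domain in percent of all its contact. All 6 bins of Rbm33 had both ESC libraries above all limb bud libraries (100 percent, against 22.7 percent of the 75 bins tested), with differences of -12.2 to -6.22 percentage points. Bin 15, at its start, had 59.8 and 60.3 percent in ESC, 49.5 and 54.3 in anterior and 45.3 and 42.4 in posterior limb bud, and was 1 of the 2 called bins of 75 (2.67 percent), at -12.2 ± 3.67 points (SE, adjusted p = 0.0461). It lost that call when ESC library 1, ESC library 2, anterior library 1, posterior library 1 or posterior library 2 was left out (-12.7 to -10.4 points, adjusted p = 0.0876 to 0.589), and within the shared run month it was at -11.5 points. Lower shares were not particular to Rbm33. At 4 of the 5 tested bins of Lmbr1 (80 percent) both ESC libraries also lay above all limb bud libraries, with differences of -5.32 to -2.67 points over the 5. The median difference over the 75 bins was -3.63 points, and 60 of them had a lower limb mean.

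**Figure D3:**
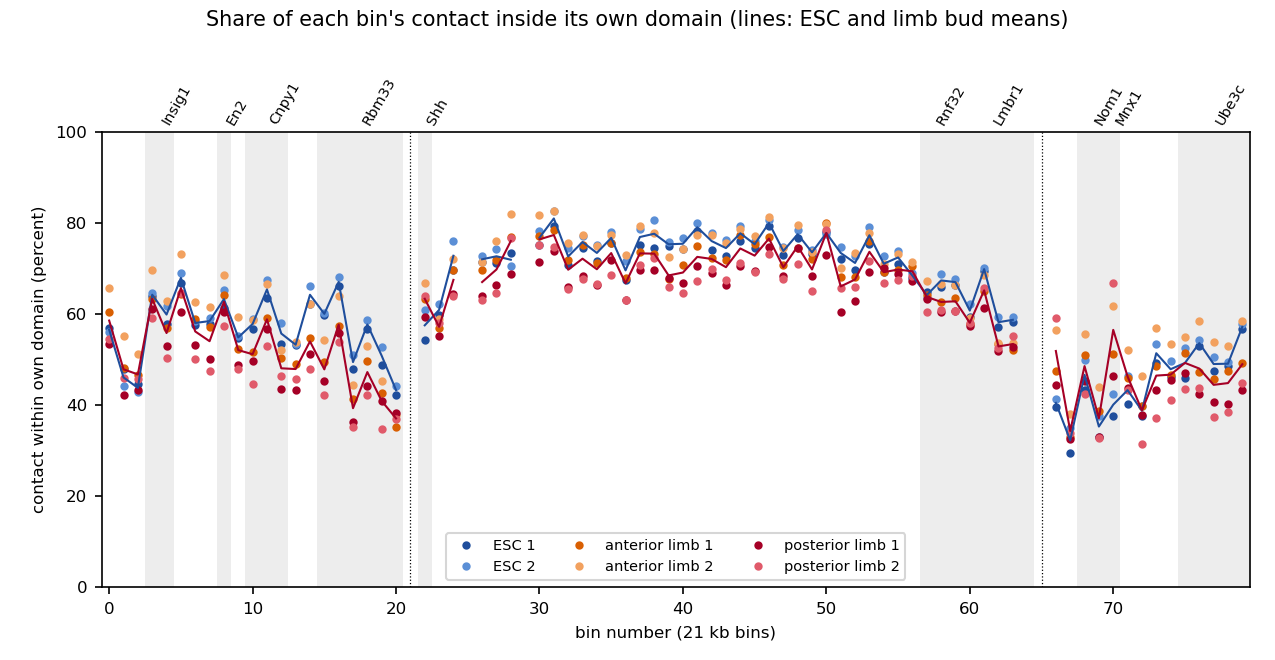
Percent of each bin's contact that stays inside its own domain, by bin number, for the 2 ESC and 4 limb bud libraries (points) with the means of both tissues as lines. The limb bud line lies below ESC across Rbm33 and above it at Mnx1, where the 4 limb bud libraries run from 46.4 to 66.9 percent against 37.7 and 42.6 percent.

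Rbm33 had more contact in limb bud with Lmbr1, across the whole Shh domain. Rbm33 with Lmbr1 had a contact value of 10.5 and 11.0 in ESC, 16.8 and 16.3 in anterior limb bud, 16.1 and 15.3 in posterior limb bud and 18.5 in the embryo body. The groups did not overlap, and the log2 difference of 0.58 ± 0.13 (adjusted p = 0.0456) was the 1 called rise among segment pairs. It lost its call when any single library was left out (adjusted p = 0.0619 to 0.379), with differences of 0.55 to 0.61, and was at 0.58 within the shared run month. Observed over expected it was at 0.33 and not called (adjusted p = 0.168). Its neighbours did not pass the test. The stretch between Cnpy1 and Rbm33 with Lmbr1 was at 8.49 and 7.60 in ESC against 11.52 to 13.0 in limb bud (0.58 ± 0.13, adjusted p = 0.0603), and the left boundary with Lmbr1 at 22.3 and 29.6 against 38.6 to 56.2 (0.79 ± 0.20, adjusted p = 0.0848).

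From the bin of the limb enhancer, 19 of 21 pairs with the En2 domain had a higher limb mean, and at 11 of the 21 (52.4 percent) all limb bud libraries lay above both ESC libraries, against 13.5 percent of all bin pairs. None of its 75 pairs was called by limma, and 15 had an unadjusted p under 0.05. The enhancer's bin with the left boundary had 20.3 and 30.6 in ESC, 53.1 and 54.3 in anterior limb bud, 38.98 and 48.1 in posterior limb bud and 23.4 in the embryo body (0.82 ± 0.19, adjusted p = 0.179). The next bin, 20, at the end of Rbm33, had 16.9 and 20.4 in ESC against 26.7 to 36.1 in limb bud (0.67 ± 0.17, adjusted p = 0.233). Both pairs were the strongest of their separation in both tissues. Towards the desert, bin 63 with bin 46 had 30.9 and 37.6 in ESC against 19.3 to 24.8 (-0.52 ± 0.17, adjusted p = 0.324).

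The contact of Shh with the limb enhancer, the known long-range pair of the limb, was not called. Shh with bin 63 had a contact value of 26.7 and 26.9 in ESC, 33.6 and 37.9 in anterior limb bud and 32.4 and 31.1 in posterior limb bud. All limb bud libraries lay above both ESC libraries, but the difference of 0.28 ± 0.16 did not pass the test (adjusted p = 0.516), and the pair ranked 3 of 36 at its separation in both. Against the mean of the surrounding bin pairs it leaned the other way, at 1.28 and 1.07 in ESC and 0.957 to 1.14 in limb bud, with overlap. The strongest contact of Shh with Lmbr1 was bin 61, at 57.1 and 68.7 in ESC, 77.1 and 102 in anterior and 54.4 and 76.7 in posterior limb bud. It ranked 1 of 39 in both tissues and the groups overlapped (0.26 ± 0.22, adjusted p = 0.659). Shh with Rnf32 also overlapped, at 15.4 and 15.3 in ESC against 13.2 to 16.8 (adjusted p = 0.886).

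**Figure D4:**
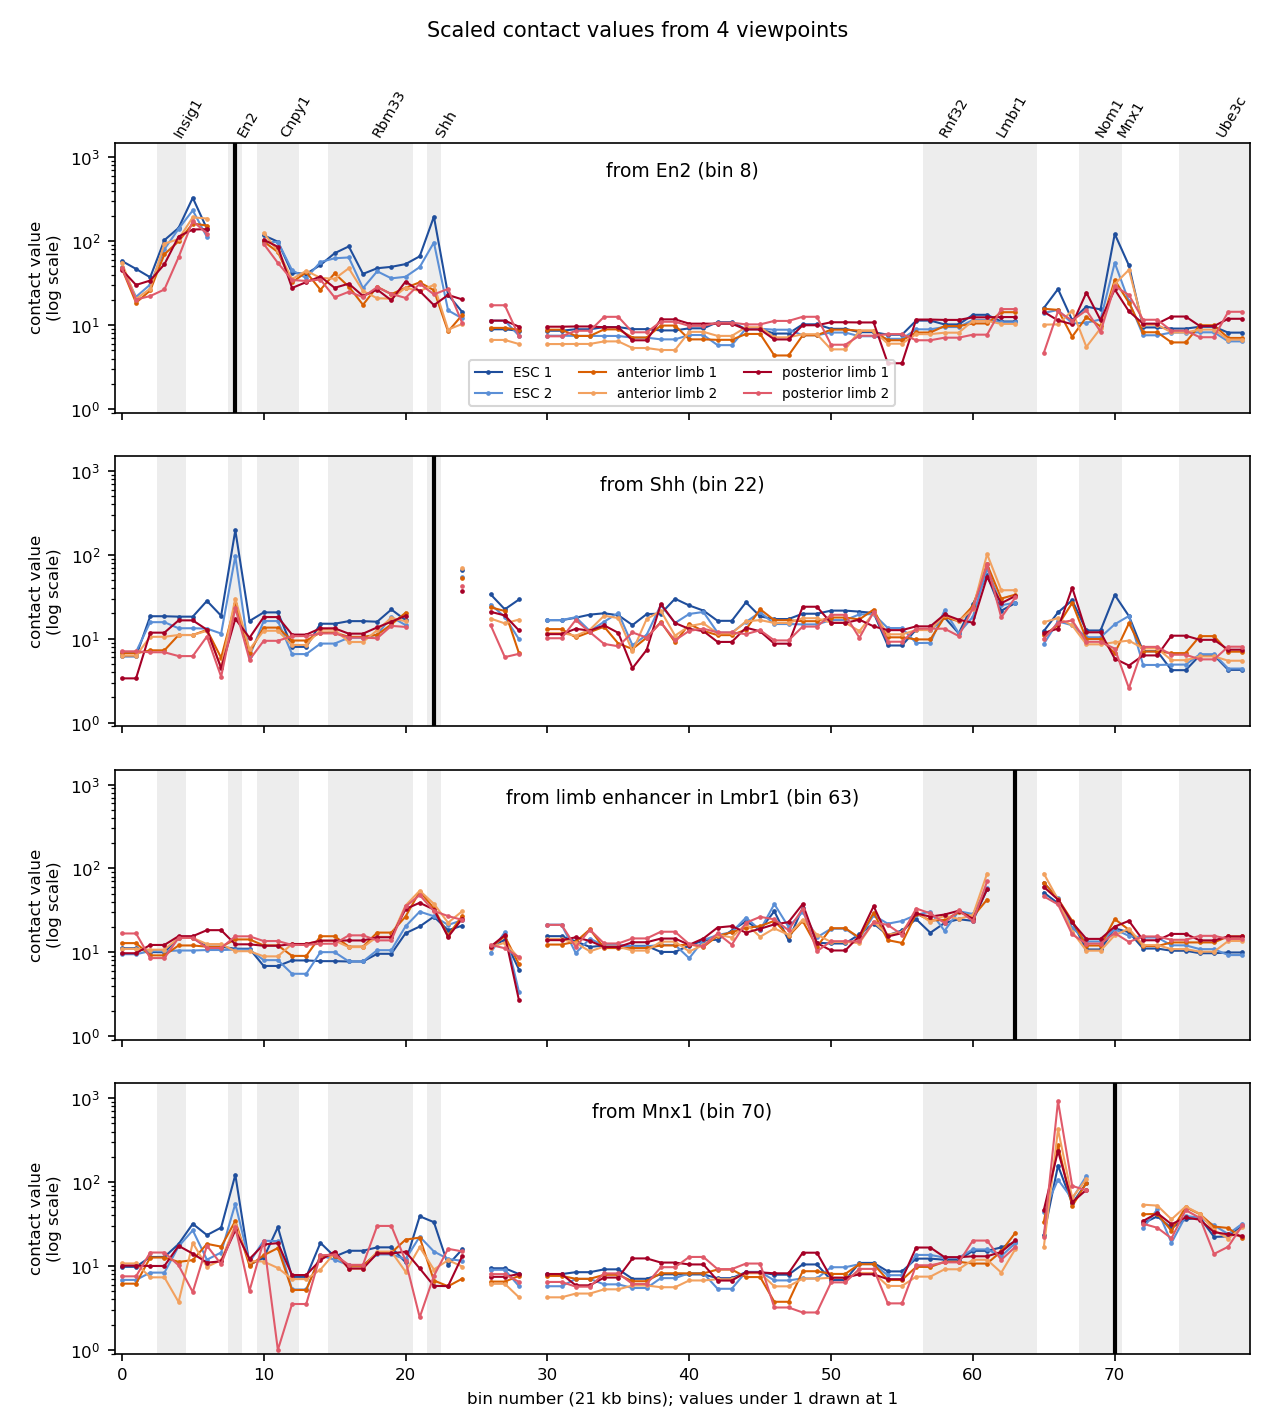
Scaled contact value (log scale) of En2, Shh, the limb enhancer's bin and Mnx1 (black lines) with every other bin, by bin number, in the 2 ESC and 4 limb bud libraries. ESC peaks at Shh and Mnx1 stand out from En2, while the contact of Shh with Lmbr1 near bin 61 is high in both tissues.

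Inside the Shh domain the called contact joined the desert beside Shh with the start of the middle of the desert. Bin 23, beside Shh, with bin 35, 252 kb further into the desert, had a contact value of 46.7 and 62.0 in ESC, 12.0 and 14.7 in anterior limb bud, 18.3 and 12.8 in posterior limb bud and 22.8 in the embryo body. This was the second called bin pair beside En2 with Shh, with a log2 difference of -1.60 ± 0.19 (adjusted p = 0.00404), and the groups did not overlap. Relative to the surrounding pairs it was 2.12 and 2.14 times as high in ESC, 0.749 to 1.28 times in limb bud and 1.84 times in the embryo body. It lost its call without ESC library 2 (-1.41, adjusted p = 0.0899) and observed over expected (-1.29, adjusted p = 0.0765), and the difference within the shared run month was -1.46. Bins 27 and 39, at the same distance, had 34.0 and 31.7 against 12.0 to 17.1 (-0.98 ± 0.16, adjusted p = 0.0644).

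Further pairs from this side of the desert did not pass the test. Bin 31 with bin 61 in Lmbr1 had 39.7 and 46.9 in ESC, 9.51 and 23.7 in anterior and 7.36 and 5.34 in posterior limb bud (-1.65 ± 0.32, adjusted p = 0.112). Shh with the middle of the desert was at 20.7 and 16.5 in ESC against 11.7 to 14.5 in limb bud (-0.55 ± 0.16, adjusted p = 0.121). Of the 38 pairs of Shh inside its domain, 28 had a lower limb mean and 0 were called, with 9 at an unadjusted p under 0.05. The insulation value was called lower in limb bud at bins 27 (-0.26 ± 0.08, adjusted p = 0.0423) and 36 (-0.23 ± 0.08, adjusted p = 0.0467) and higher at bin 51 (0.25 ± 0.08, adjusted p = 0.0427), out of the 43 tested bins of the Shh domain. Each of these 3 calls was lost when ESC library 1, anterior library 1 or posterior library 1 was left out, the calls at bins 27 and 36 also without ESC library 2 (adjusted p = 0.0703 to 0.373), and that at bin 51 also observed over expected (adjusted p = 0.0967). None of the 19 segment pairs inside the Shh domain was called by limma, and 2 had an unadjusted p under 0.05.

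**Figure D5:**
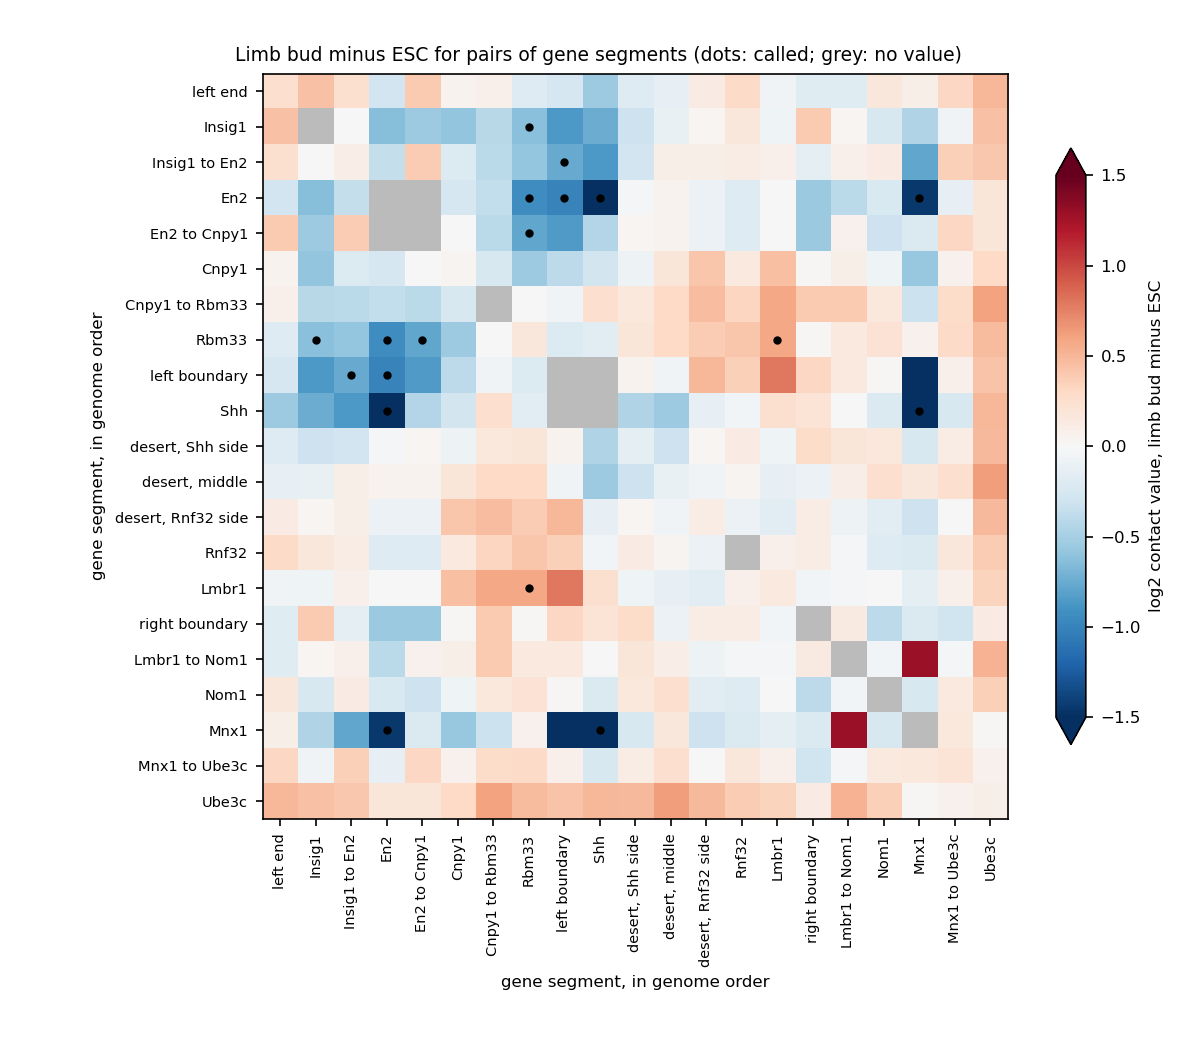
Limb bud minus ESC difference (log2 contact value) for 218 pairs of gene segments in genome order, with called pairs as dots and grey where no value was computed. The called losses gather among En2, Rbm33, the left boundary, Shh and Mnx1, and the called gain is Rbm33 with Lmbr1.

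The Mnx1 domain went the other way from the En2 domain, with more contact across its bins in limb bud. All 9 tested bins had a higher limb mean insulation value, and 6 of the 9 were called. Bin 73, between Mnx1 and Ube3c, had -0.099 and -0.095 in ESC, 0.298 and 0.310 in anterior and 0.384 and 0.207 in posterior limb bud, with no overlap and a difference of 0.40 ± 0.07 (adjusted p = 0.00188), and 0.36 within the shared run month. Bins 71 and 72 differed by 0.29 each (adjusted p = 0.0267), and both lost their calls without ESC library 1, anterior library 1 or posterior library 1 (0.24 to 0.29). Bins 67, 68 and 69, around Nom1, differed by 0.55, 0.53 and 0.49. At Mnx1 itself all limb bud libraries lay above ESC, but the difference of 0.17 ± 0.08 missed the threshold (adjusted p = 0.136).

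A single bin pair weighed on part of this. Mnx1 with bin 66, beside the right boundary, had a contact value of 158 and 107 in ESC, 277 and 423 in anterior limb bud, 236 and 922 in posterior limb bud and 1119 in the embryo body. No ESC value reached the limb range, but the limb bud libraries differed widely, and the log2 difference of 1.59 ± 0.43 was not called (adjusted p = 0.233). Within the shared run month the difference was 1.95. The pair lies in the insulation windows of bins 67 to 69. With it left out, a setting chosen after seeing the data, bins 67, 68 and 69 differed by -0.01, 0.06 and 0.11 and none of them was called, while bins 71 to 73 kept their calls at 0.31 to 0.42. Without posterior library 2 the differences at bins 67 to 69 were 0.36, 0.34 and 0.34, and without anterior library 1 these 3 bins lost their calls (adjusted p = 0.105).

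Mnx1 had the largest difference of in-domain share among the 75 bins. It was 37.7 and 42.6 percent in ESC, 51.2 and 61.8 in anterior and 46.4 and 66.9 in posterior limb bud, and 64.5 percent in the embryo body, with no overlap. The difference was 16.4 ± 3.86 points (adjusted p = 0.00339), the 1 called rise of the 75 bins (1.33 percent). Without the pair of bins 66 and 70 it was 5.72 points (adjusted p = 0.471), and it was also lost without ESC library 1 (adjusted p = 0.390), and within the shared run month it was 26.6 points. Other genes of the domain did not pass the test. Nom1 with Ube3c was at 22.7 and 30.1 in ESC against 30.9 to 35.2 in limb bud (0.35 ± 0.16, adjusted p = 0.256), Nom1 with Mnx1 at 97.2 and 118 against 79.7 to 109 (adjusted p = 0.556), and Mnx1 with Ube3c at 29.7 and 32.7 against 29.0 to 34.2 (adjusted p = 0.969).

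Averaged over whole domains, the differences were small. The Mnx1 domain had a mean contact value of 40.7 and 43.9 in ESC, 48.8 and 56.97 in anterior and 46.1 and 51.7 in posterior limb bud, and the En2 domain 43.8 and 42.4 against 37.5, 41.6, 35.5 and 33.6. Neither overlapped between the tissues. The log2 differences of 0.26 ± 0.12 and -0.22 ± 0.12 did not pass the test (adjusted p = 0.245 for each). Without the pair of bins 66 and 70 the Mnx1 domain was at 0.15 and the En2 domain at -0.21 (adjusted p = 0.367 for each). Without the bins of En2, Shh and Mnx1 they were at 0.16 and -0.18 (adjusted p = 0.317 for each). Both settings were chosen after seeing the data. The Shh domain was at 23.8 and 25.7 in ESC and 22.1 to 24.7 in limb bud (-0.09 ± 0.12, adjusted p = 0.472). The 3 blocks between domains overlapped, with differences of 0.10 to 0.17. None of the 6 blocks (0 percent) was called by limma, and 1 had an unadjusted p under 0.05. Without anterior library 2, 4 of the 6 blocks were called. These were the En2 domain at -0.28, the Mnx1 domain at 0.21 and the blocks of the Mnx1 domain with the Shh and En2 domains at 0.26 and 0.24. With every library kept, observed over expected and quantile normalization each called 2 blocks, the En2 and Mnx1 domains. Within the shared run month the En2 domain was at -0.23 and the Mnx1 domain at 0.41.

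The fall of contact with distance did not separate the tissues. The slope of log2 contact on log2 distance was -0.531 and -0.621 in ESC, -0.477 and -0.570 in anterior limb bud, -0.408 and -0.379 in posterior limb bud and -0.366 in the embryo body. ESC library 1 lay between the anterior libraries, and the difference of 0.118 had an exact two-sided permutation p of 0.2. It turned to -0.0486 over distances of 2 to 20 bins (exact p = 0.6) and was 0.0568 within the shared run month. Inside the Mnx1 domain the slope was -0.448 and -0.414 in ESC and -0.314 to -0.201 in limb bud, with no overlap and the smallest exact p this design allows, 0.0667. The embryo body, at -0.385, lay between the groups there and nearer to ESC. The limb minus ESC difference of slope was -0.0733 inside the En2 domain (exact p = 0.267) and 0.0537 inside the Shh domain (exact p = 0.133).

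The embryo body lay nearer to limb bud than to ESC at 8 of the 9 called segment pairs, the exception being En2 with Mnx1. The same held for both called bin pairs, for both called shares, and for 13 of the 15 called insulation bins, the exceptions being bins 27 and 51. Being 1 library, it gives no spread. Among 12 libraries of ESC lines with edits in the same region, which share the E14 background, the contact value of En2 with Shh ran from 56.9 to 180 with a median of 109, and 12 of 12 lay above the highest limb bud library. For En2 with Mnx1 10 of 12 did, for Shh with Mnx1 9 of 12, and for bins 23 and 35 9 of 12. At bins 23 and 35 the edited lines ran from 10.3 to 33.0 with a median of 22.6, so all 12 lay below both wild type ESC libraries (46.7 and 62.0) and their median was close to the embryo body (22.8). These lines were not tested here, since the edits could change the same contacts.

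Whole maps did not split cleanly by tissue. With the average decay over distance taken out, the ESC libraries correlated at 0.853, limb bud libraries among each other at 0.599 to 0.823 (mean 0.693), and ESC with limb bud at 0.540 to 0.801 (mean 0.694). The embryo body correlated with limb bud at 0.594 to 0.699 and with ESC at 0.636 and 0.666. These values describe 2853 shared pairs of 1 region and carry no test.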

How the data were processed

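Mouse 5C libraries of the Shh region were compared: wild type E14 ESC (2), anterior limb bud (2) and posterior limb bud (2), with the embryo body (1) as a side check. The deposited signal, a contact value per pair of 21 kb bins in mm9 (build per the submitters' processing notes), was made by the authors from sequenced ligation products. Which normalization it carries is not stated in the labels. The deposited counts per pair of HindIII fragments of the limb bud libraries, whole numbers per the file values, gave depth only. Pooled sum matrices were not used.

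Pairs at least 2 bins apart were scaled to a total of 48464.8 per library. Single bin pairs were tested as log2(value + 5.17), where 5.17 is the 5th percentile, so fold changes of low pairs are understated there. Segment pairs and domain blocks used log2 of the mean scaled value, insulation a window of 5 bins, and the share percent values. Each table was fitted whole in limma 3.58.1 (R 4.3.3) with 1 mean for ESC and 1 for the 4 limb bud libraries, and adjusted by Benjamini-Hochberg at 0.05, and every adjusted p is limma's. Slopes and focal ratios had exact permutation tests. Scripts were tested on simulated data. Named segment pairs are those past the threshold, and named bin pairs the 10 of smallest p and the 3 of smallest p for each of En2, Shh, Mnx1 and the limb enhancer. Other pairs given as values, such as further segment pairs of Shh, Lmbr1 and the Mnx1 domain, were chosen after their values were seen. Members, lists and comparisons were chosen with earlier results of these data known. Replicate numbers did not pair the libraries, since the deviations of same-numbered libraries from their group means correlated at -0.0291 to 0.0176.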

Additional observations from a re-analysis of the deposited data

Results flagged for a closer look

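Among 57 sets of 4 limb bud values examined, 2 had 1 library far from the other 3 (gap to the nearest value over the whole range, above Dixon's 95% critical value), where chance finds about 1 in 20. For bins 10 and 16, Cnpy1 with Rbm33, the ratio was 0.888, with posterior library 2 at a contact value of 16.9 and the others at 26.9 to 28.1. For the insulation value of bin 68, in Nom1, it was 0.852, with posterior library 2 at 1.46 and the others at 0.668 to 0.785, and the same library had the highest limb bud contact of bins 66 and 70.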

How the results depend on the processing

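Depth of the ESC libraries was not known, and 2 ESC libraries limit every test. No named segment pair or bin pair changed direction under the alternatives run. Where the groups did not overlap, fits on fewer of the same libraries could not change it. Counts of calls moved widely. Leaving out 1 library gave 0 to 4 domain blocks, 1 to 6 segment pairs, 2 to 6 bin pairs, 5 to 23 insulation bins and 0 to 22 shares. The same fits gave -0.28 to -0.18 for the En2 domain, 0.21 to 0.32 for the Mnx1 domain, 0.11 to 0.26 for Shh to Mnx1, 0.00642 to 0.311 for En2 to Mnx1, 0.04 to 0.17 for En2 to Shh, -0.0554 to 0.355 for insulation at bin 21 and -2.58 to 1.37 points for the share at bin 8. Against posterior limb bud alone 5 domain blocks (En2 domain -0.32, Mnx1 domain 0.21, En2 to Shh 0.22, Shh to Mnx1 0.32, En2 to Mnx1 0.28), 0 segment pairs, 0 bin pairs and 50 shares were called. Against anterior alone there were 0 bin pairs, En2 to Shh was at -0.0255, insulation at bin 65 at -0.0721 and the share at bin 8 at 3.10 points. With run month as a covariate, and within the shared month, En2 to Shh was at -0.0129, En2 to Mnx1 at -0.0329, bin 21 at -0.128, bin 65 at -0.0219 and the share at bin 8 at 1.68 points. The covariate called 1 share, and the shared month, which holds 1 ESC library and so supports no call, 12 bin pairs, 6 insulation bins and 0 shares. With the spread of all libraries there were 2 blocks (En2 domain -0.22, Mnx1 domain 0.26), 39 segment pairs, 35 bin pairs, 23 insulation bins and 16 shares. Observed over expected gave 2 blocks (-0.19 and 0.37, En2 to Shh -0.00902), 0 bin pairs and 10 shares. Quantile normalization gave 2 blocks (-0.19 and 0.30) and 4 bin pairs, and a separation of at least 3 bins 2 blocks (-0.30 and 0.33) and 8 shares. With the embryo body added there were 7 insulation bins and 0 shares. The replicate block left 5 segment pairs and 1 share. Gene bins widened by 1 gave 3 segment pairs, bins of 42 kb 0 bin pairs, and a window of 3 bins 5 insulation bins, with bin 63 at -0.0769. Without the pair of bins 66 and 70 bin 67 was at -0.0128 and 0 shares were called. The decay difference over 2 to 20 bins was -0.0486. The causes were not tested. The widened gene bins and the fits without bins 66 and 70 were chosen after seeing the data.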
